A study of Arabidopsis thaliana with 8 samples.

Results

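AT3G45700 and AT3G45710 are neighbouring Arabidopsis thaliana genes of the major facilitator superfamily, in the nitrate excretion transporter group of the NPF (nitrate and peptide transporter) family. Each was read by 1 probe set of the array's annotation, 252536_at for AT3G45700 and 252537_at for AT3G45710, 2 genes of the 13355 with a probe set of their own among the 22810 probe sets on the array. The pair was chosen by measured values: with benzyladenine, both genes read lower on the mutant arrays than on those of wild type. In that comparison AT3G45700 passed the limma test with all 8 arrays, as 0.141% of probe sets did, and AT3G45710 passed with 7 arrays, as 7.68% did. The levels of the pair under benzyladenine are therefore given as a description, without a test.

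RNA was measured on 8 single-colour Affymetrix arrays, in 4 groups of 2, from seedlings aged 14 days. The plants were wild type or carried knock-outs of ARR1, ARR10 and ARR12, which encode type-B response regulators (the arr1,10,12 mutant), and they were treated for 1 h in liquid culture, either with benzyladenine (BA), a synthetic cytokinin, at 10 µM or with DMSO alone, the solvent of BA. All plants had grown under continuous light on medium with sucrose, and all were kept as shoots, since roots were cut off before RNA extraction by the treatment protocol, although the tissue label reads seedling. The mutant alleles are not given in the labels, and ARR1, ARR10 and ARR12 had 0 probe sets with a single-gene name, so the knock-outs were not checked at the targeted genes. The labels do not say whether the plants of the 2 arrays of a group were grown separately, and a p-value here reflects the spread between these samples, which may be technical.

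NPF proteins are membrane carriers that move nitrate, peptides, chloride, plant hormones or glucosinolates across membranes, usually with protons. NAXT1, the founding member of the nitrate excretion group, exports nitrate across the plasma membrane of root cells, and the group is known mainly from roots. Cytokinin reaches its target genes through a phosphorelay that ends at the type-B response regulators, which are transcription factors, and among the first genes to respond are the type-A response regulators, which dampen the signal.

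A deposited value is a linear ratio without a unit. The values of AT3G45700 and AT3G45710 have a median of 1 over the 8 arrays, as do those of most probe sets, so a value of 4 means 4 times the gene's own middle level. A value therefore says how arrays differ for a gene, and not which gene is more abundant. Below, a probe set is called dim where its median lay more than 0.005 under 1, which applied to 29.9% of the 22746 probe sets tested and apparently marks a value given relative to a common floor.

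Mutant DMSO replicate 1 stood apart from the other arrays. Its median log2 ratio of 5′ to 3′ control probe sets was -1.51 over 6 pairs, against -0.01 to 0.15 on the other 7 arrays, and 17.9% of probe sets differed more than 2-fold between it and its group mate, against 0.747% to 3.34% in the other groups. By the file names in the labels, the 4 wild-type arrays share a prefix, 3 mutant arrays share another, and mutant DMSO replicate 1 has a prefix of its own. Genotype and prefix cannot be told apart. The BA effects and genotype differences of the pair that use the DMSO-treated mutant are given with 8 arrays and with 7. The 7 arrays leave out mutant DMSO replicate 1, so its group is a single array assumed to vary like the others. Some values of other genes and the medians of gene lists are given with 8 arrays only. The BA effect in the mutant with 7 arrays is also the value within 1 prefix.

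AT3G45700 was highest in wild type with BA. On the wild-type DMSO arrays it read 1.05 and 1.06, and on the wild-type BA arrays 4.19 and 5.86. The mutant arrays read 0.946 and 0.613 with DMSO and 0.715 and 0.841 with BA. Both wild-type BA arrays thus lay above all other arrays, whereas the BA and DMSO arrays of the mutant overlapped. Of all probe sets, 20.6% had the wild-type BA arrays above the wild-type DMSO arrays. The share with the wild-type BA arrays above all other arrays was not computed.

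On the log2 scale, AT3G45700 was 2.23 ± 0.26 (SE, 8-array limma fit, n = 2 and 2) higher with BA than with DMSO in wild type, a 4.69-fold difference. That was rank 16 of 13355 named genes for an increase with BA in wild type, and rank 1 of the 34 NPF genes with a single-gene probe set. Both ranks use the wild-type BA arrays on which the gene was picked, so they are a description. In the mutant the BA effect was 0.03 ± 0.26 with 8 arrays and 0.34 ± 0.24 with 7. The BA effect in the mutant minus that in wild type came to -2.20 ± 0.37 with 8 arrays and -1.89 ± 0.30 with 7, and these values share the wild-type and mutant BA arrays on which the gene was picked.

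AT3G45710 had the smaller BA difference of the pair in wild type and the lower relative values in the mutant. On the wild-type DMSO arrays it read 1.40 and 1.23, and on the wild-type BA arrays 2.89 and 3.87. The mutant arrays read 0.769 and 0.170 with DMSO and 0.294 and 0.362 with BA. All 4 mutant arrays lay below all 4 wild-type arrays. Of all probe sets, 13.8% had both mutant arrays below both wild-type arrays under DMSO, and 18.4% under BA. The share with all 4 mutant arrays below all 4 wild-type arrays was not computed. The DMSO-treated mutant arrays differed from each other by 4.52-fold, with both mutant BA arrays between them.

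The log2 BA effect on AT3G45710 in wild type was 1.35 ± 0.64 (SE, 8-array fit, n = 2 and 2), a 2.55-fold difference, with an SE of 0.19 in the 7-array fit. It ranked 71 of 13355 named genes for an increase and 3 of 34 NPF genes, a description that uses the wild-type BA arrays on which the gene was picked. In the mutant the BA effect was -0.15 ± 0.64 with 8 arrays and 0.94 ± 0.24 with 7, so that its direction depended on mutant DMSO replicate 1. The difference between the genotypes in BA effect was -1.50 ± 0.90 with 8 arrays and -0.41 ± 0.31 with 7. Without that array the log2 BA effect on AT3G45710 in the mutant was therefore nearer to the one in wild type, from a lower starting level.

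**Figure D1:**
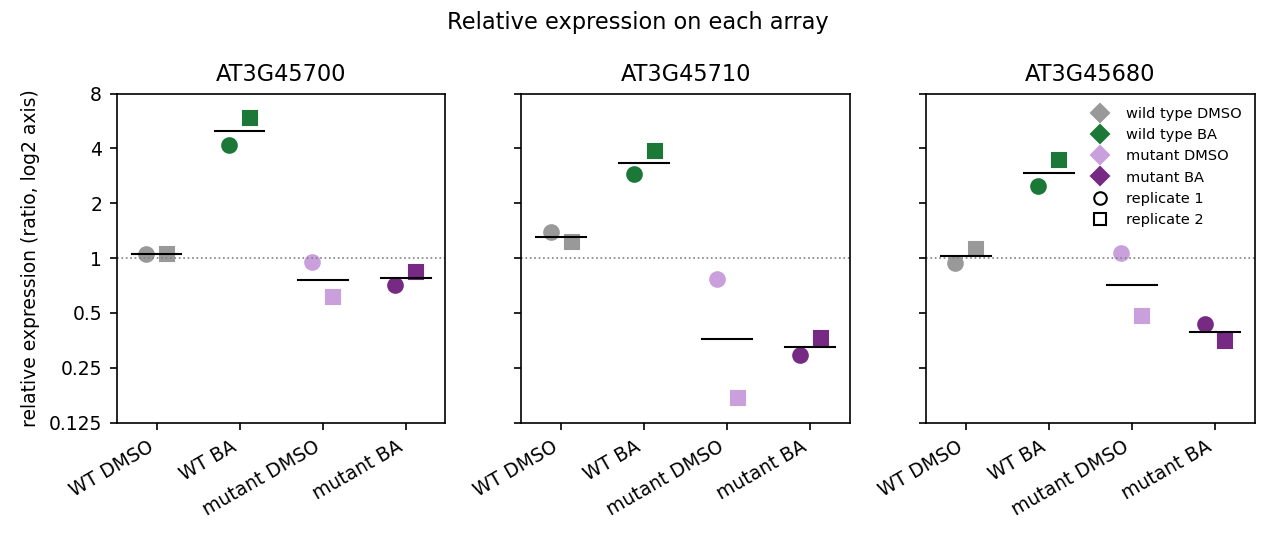
Relative expression (ratio, log2 axis) of AT3G45700, AT3G45710 and their neighbour AT3G45680 on each of the 8 arrays; circles are replicate 1, squares replicate 2, bars the mean of the 2 log2 values. The wild-type BA arrays are the highest for each gene, and AT3G45710 is at 0.769 and 0.170 on the DMSO-treated mutant arrays.

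The arrays with DMSO alone did not enter the difference by which the pair was picked, and there the genotypes were tested. They did enter the spread that limma estimates over all groups, which served the calls under BA as well as this test. The test is therefore not fully independent of the picking. For AT3G45710 the log2 difference, mutant minus wild type, was -1.86 ± 0.64 (SE) with 8 arrays, which did not pass (limma adjusted p = 0.304). With 7 arrays it was -2.95 ± 0.24, a 7.71-fold lower level in the mutant that passed (limma adjusted p = 0.00536). The adjusted p of this difference ranged from 0.00536 to 0.736 over the alternatives, and no alternative but the 7-array fit passed. With 7 arrays 4.22% of probe sets passed in either direction and 1.89% as lower in the mutant, against 0.00879% with 8 arrays, and the 7-array call rests on the single value of 0.170.

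AT3G45700 differed less between the genotypes under DMSO. Its log2 difference, mutant minus wild type, was -0.47 ± 0.26 with 8 arrays (limma adjusted p = 0.463) and -0.78 ± 0.24 with 7 (limma adjusted p = 0.130), and it passed in neither fit. Over the alternatives the adjusted p lay between 0.130 and 0.807. For both genes the 2 mutant DMSO arrays lay below the 2 wild-type DMSO arrays, an arrangement seen in 13.8% of all probe sets.

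Under BA, where the pair was picked, AT3G45700 was 6.39-fold lower in the mutant (-2.68 ± 0.26, log2, 8-array fit) and AT3G45710 was 10.3-fold lower (-3.36 ± 0.64). No mutant BA array reached a wild-type BA array for either gene, as in 18.4% of all probe sets. Among the 34 NPF genes, AT3G45710 ranked 1 and AT3G45700 ranked 3 for a lower level in the BA-treated mutant.

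The levels of AT3G45700 thus ran from wild type with BA, through wild type with DMSO, to the 2 mutant groups, which overlapped each other. For AT3G45710 the order of groups was the same, and again the mutant groups overlapped. With 8 arrays, the step from wild type with DMSO to the mutant with DMSO was the one that separated the genes most. It was 0.47 for AT3G45700 and 1.86 for AT3G45710 in size on the log2 scale. That rested on mutant DMSO replicate 2, without which the values were -0.16 and -0.77. The genes then lay further apart in the BA effect in wild type, at 2.23 and 1.35.

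**Figure D2:**
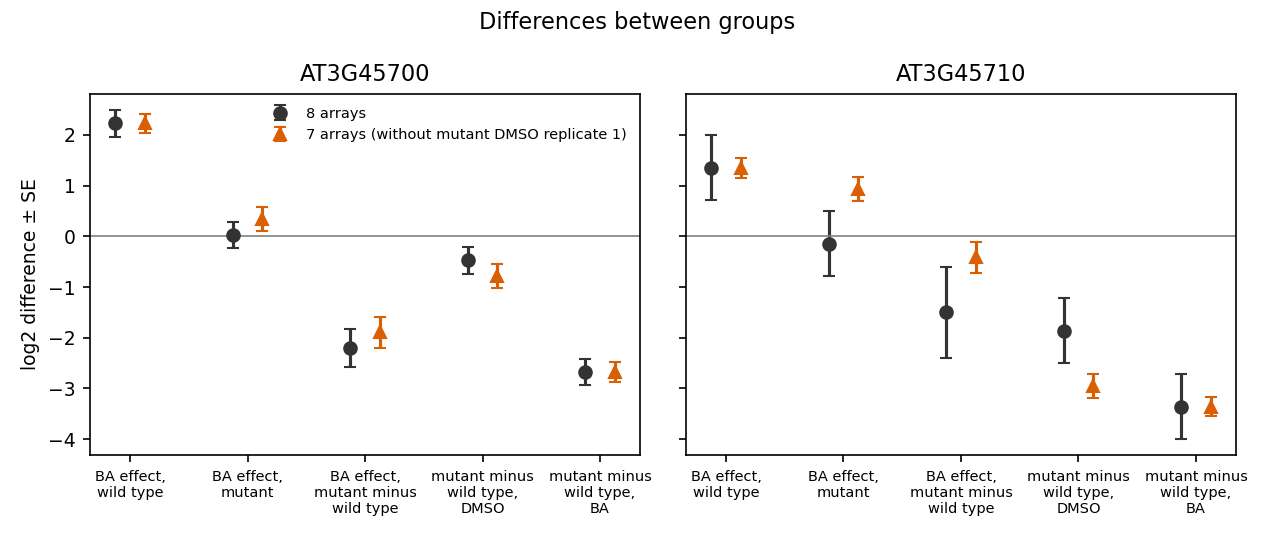
Log2 differences ± SE of AT3G45700 and AT3G45710 for the BA effect in each genotype, the difference of the BA effects, and mutant minus wild type under DMSO and under BA, with 8 arrays (circles) and without mutant DMSO replicate 1 (triangles). AT3G45710 moves from -0.15 to 0.94 for the BA effect in the mutant when that array is left out, whereas AT3G45700 moves from 0.03 to 0.34.

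The ratio of AT3G45710 to AT3G45700 within an array cancels whatever scales both values on that array alike, and compares arrays, not absolute levels. The wild-type arrays gave 1.32 and 1.16 with DMSO, and 0.691 and 0.660 with BA. In the mutant it was 0.813 and 0.277 with DMSO and 0.411 and 0.430 with BA. The pair was thus not in a fixed ratio: in wild type it was lower with BA than with DMSO, and all 4 mutant arrays had a ratio below both wild-type DMSO arrays. On 1 mutant array, DMSO replicate 1, the ratio was above those of the wild-type BA arrays.

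In the RefSeq gene order of assembly TAIR10.1, AT3G45700 and AT3G45710 sit on chromosome 3 with 1 annotated long noncoding RNA between them. The window from 10 genes before the pair to 10 genes after it holds 23 annotated genes, of which 7 belong to the NPF family. The arrays read 5 of these 7 with a probe set of their own, while NAXT1 and AT3G45660 share a probe set that cannot tell them apart. No genome build is named for the deposited values, so no coordinates are given.

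Of these neighbours, AT3G45680, another NPF gene of the group, had a profile like that of the pair. Wild-type arrays read 0.941 and 1.12 with DMSO and 2.48 and 3.47 with BA, and mutant arrays 1.06 and 0.479 with DMSO and 0.436 and 0.352 with BA. Its BA effect in wild type was 1.52 ± 0.39 (log2, 8 arrays), which did not pass (limma adjusted p = 0.339), and it rose in the 7-array fit with an SE of 0.21 (limma adjusted p = 0.0233). Under BA the mutant minus wild-type difference was -2.91 ± 0.39 (limma adjusted p = 0.0703 with 8 arrays), and it passed in the 7-array fit (limma adjusted p = 0.00150). AT3G45680 ranked just behind AT3G45700 among the 34 NPF genes for an increase with BA in wild type, ahead of AT3G45710 at rank 3.

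The NPF gene between AT3G45680 and AT3G45700 did not follow them. AT3G45690 lay at 0.716 to 0.960 on all 8 arrays, with a BA effect of -0.02 ± 0.16 in wild type, and AT3G45720, the NPF gene on the far side of AT3G45710, lay at 0.539 to 0.710 with a BA effect of 0.27 ± 0.14. Both probe sets are dim, with all 8 values under 1, so a change in these genes could have been missed. The probe set shared by NAXT1 and AT3G45660 read 0.984 and 1.11 on the wild-type DMSO arrays, 1.28 and 1.36 on the wild-type BA arrays, and 0.706 to 1.02 in the mutant. Its BA effects were 0.34 ± 0.16 in wild type and 0.34 ± 0.16 in the mutant, and none of its comparisons passed the limma test with either 8 or 7 arrays. The 5 neighbours outside the NPF family with a probe set of their own, AT3G45670, AT3G45730, AT3G45740, AT3G45750 and AT3G45770, did not pass in any comparison either.

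**Figure D3:**
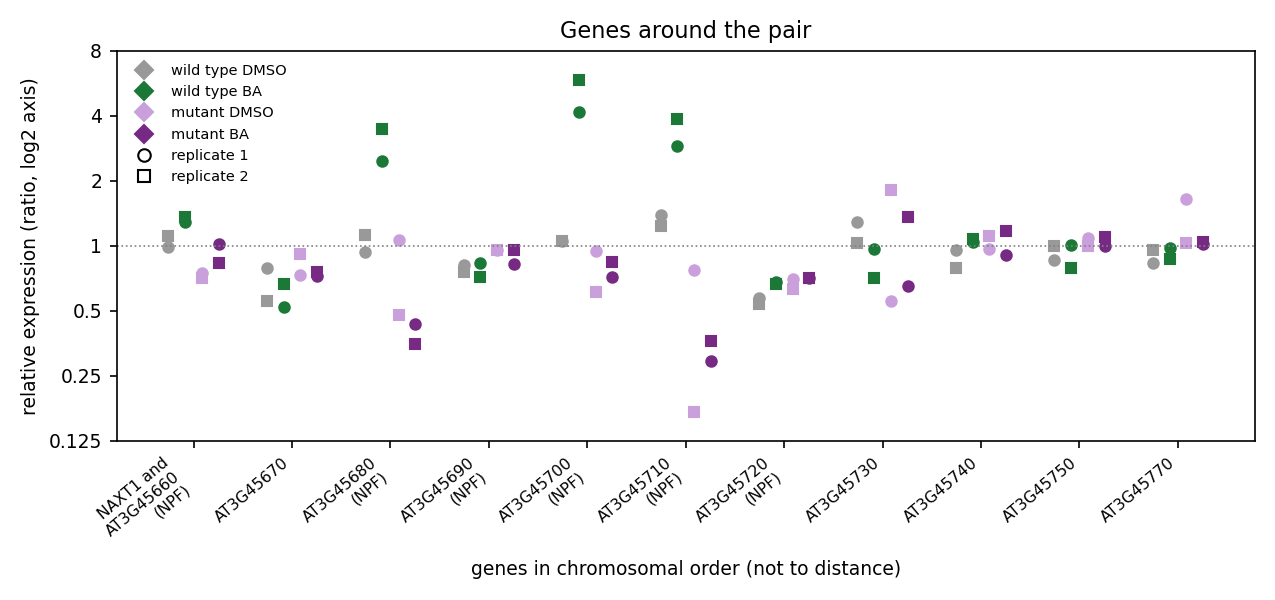
Relative expression (ratio, log2 axis) on the 8 arrays of the genes around the pair that have a named probe set, in chromosomal order; colours are groups, circles replicate 1 and squares replicate 2. In wild type with BA, AT3G45680, AT3G45700 and AT3G45710 lie at 2.48 to 5.86, while AT3G45690 between them stays at 0.716 to 0.834.

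Across the NPF family, 34 of 53 listed genes had a single-gene probe set, and 15 of the 34 were dim. The 32 genes other than the pair had a median BA effect of -0.02 in wild type and -0.01 in the mutant (log2, 8 arrays), against -0.04 and -0.01 over all probe sets. With 8 arrays 0 of the 32 passed the limma test for BA in wild type, as 0.022% of all probe sets did, and 6 had an unadjusted p under 0.05, as did 7.24% of all probe sets. With 7 arrays 1 of the 32 rose and 2 fell, where 2.27% of all probe sets passed, 0.844% as higher and 1.42% as lower.

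The gene that rose was AT3G45680. Those that fell were AT3G21670, at 1.63 and 2.30 with DMSO and 0.619 and 0.462 with BA (log2 -1.86 ± 0.28, 7 arrays, limma adjusted p = 0.0288), and AT5G13400, at 0.943 and 0.884 with DMSO and 0.479 and 0.401 with BA (-1.06 ± 0.15, limma adjusted p = 0.0227). In the mutant 0 of the 32 passed for BA by limma in either fit, as 0% of all probe sets did with 8 arrays and 0.0352% with 7, and 1 had an unadjusted p under 0.05 in each, as did 5.34% and 6.47% of all probe sets. The largest NPF value for BA in the mutant belonged to AT1G68570, at 0.597 and 0.906 with DMSO and 2.25 and 1.69 with BA (1.40 ± 0.26, 8 arrays, limma adjusted p = 0.709).

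For the difference in BA effect between the genotypes 0 of the 32 passed by limma with 8 or with 7 arrays, as 0% and 0.453% of all probe sets did, and 6 had an unadjusted p under 0.05 in each fit, as did 8.66% and 11.6% of all probe sets. The 3 most negative of the 34 values with 8 arrays were those of AT3G45680 (-2.38 ± 0.54), AT3G45700 and AT3G45710. With 7 arrays AT3G45710 ranked 8, and the 2 most negative were AT3G45700 and AT3G45680.

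Between the genotypes, the 32 other NPF genes had a median log2 difference, mutant minus wild type, of 0.17 under DMSO and 0.21 under BA with 8 arrays, against 0.10 and 0.12 over all probe sets. Under DMSO 0 of the 32 passed by limma with 8 or 7 arrays, as 0.00879% and 4.22% of all probe sets did. At an unadjusted p under 0.05 there were 3 of the 32 with 8 arrays and 8 with 7, against 13.5% and 19.2% of all probe sets. Under BA 0 of the 32 passed by limma with 8 arrays, as 0.141% of all probe sets did, and 8 had an unadjusted p under 0.05, as did 13.2%. With 7 arrays 6 passed, where 4.12% of all probe sets passed as higher and 3.56% as lower. Of these 6, AT5G13400 (1.31 ± 0.15), AT1G22570 (1.51 ± 0.33) and AT1G68570 (1.10 ± 0.19) were higher in the mutant, and AT3G45680, AT1G72140 (-1.34 ± 0.23) and AT1G22550 (-0.95 ± 0.15) were lower. GTR1, a glucosinolate transporter of the family, had the highest value under DMSO (1.09 ± 0.68, 8 arrays) but was at 1.19 and 3.76 on the 2 mutant DMSO arrays.

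**Figure D4:**
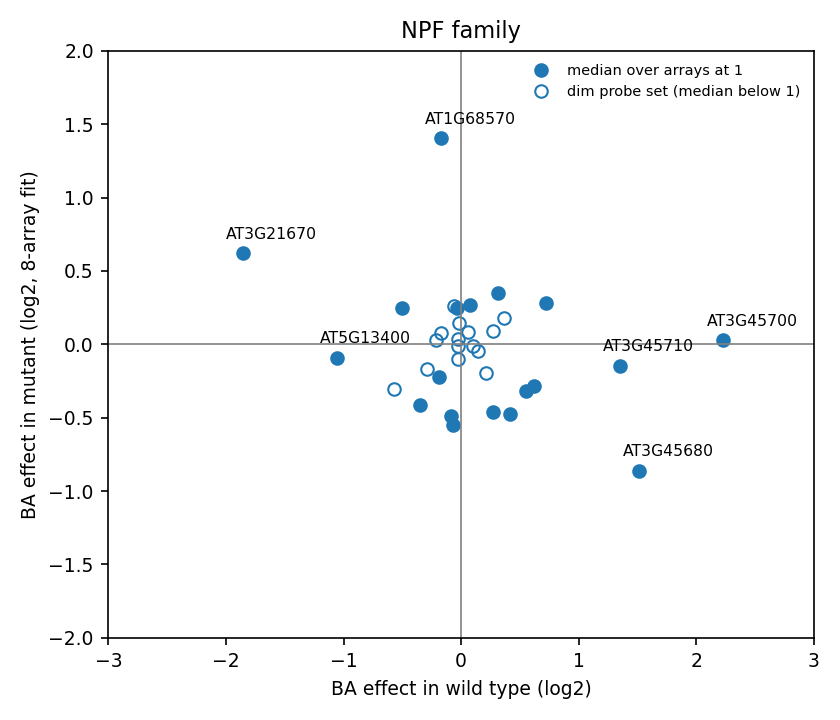
BA effect in wild type (x axis, log2) against BA effect in the mutant (y axis, log2, 8-array fit) for the 34 NPF genes with a single-gene probe set; open circles are dim probe sets. AT3G45700 is at 2.23 and 0.03, AT3G45710 at 1.35 and -0.15 and AT3G45680 at 1.52 and -0.86, to the right of the other members.

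Of 24 listed genes for other nitrate or chloride transport and nitrate assimilation, NRT2.5, a high-affinity nitrate transporter, was the 1 with a single-gene probe set. It lay at 0.459 to 0.742 on the 8 arrays in a dim probe set, and did not pass in any comparison. The rest of nitrate handling was not analysed here.

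Since the nitrate excretion group is known from roots and the roots were discarded, the root markers are given beside the pair. Of 15 listed, 2 had a single-gene probe set, the root-hair expansins EXPA7 and EXPA18. Both are given relative to the gene's own middle level, so their values do not say how much root tissue was present. Their summed relative level was 2.39 to 2.70 in wild type with DMSO, 2.43 to 3.75 in wild type with BA, 0.900 to 1.51 in the mutant with DMSO and 0.708 to 1.74 in the mutant with BA. The root markers thus lay lower on the mutant arrays, on the same side as the pair, and EXPA7 differed by -1.15 ± 0.49 under DMSO and -1.58 ± 0.49 under BA (log2, 8 arrays). With BA in wild type they differed by 0.30 ± 0.49 (EXPA7) and 0.19 ± 0.47 (EXPA18), against 2.23 and 1.35 for the pair. Neither expansin passed in any comparison in either fit. In whole shoots, fewer cells of a type and less RNA per cell cannot be told apart, and the part of root tissue in the differences of the pair was not tested.

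Of 10 shoot photosynthetic markers 4 had a single-gene probe set. Their summed relative level was 4.02 to 4.21 in wild type with DMSO, 2.92 to 3.68 with BA, 2.72 to 5.07 in the mutant with DMSO and 4.49 to 4.85 with BA. Over the 8 arrays LHCB4.1, a light harvesting protein, lay at 0.851 to 1.14, and CHLM, an enzyme of chlorophyll synthesis, at 0.628 to 1.20. PORB, which reduces protochlorophyllide, spread over 0.501 to 1.89. RCA, the activase of Rubisco, read 0.677 and 0.674 in wild type with BA and 1.04 and 1.03 in the mutant with BA. It was 0.62 ± 0.12 higher in the mutant under BA with 7 arrays (log2, limma adjusted p = 0.0317) and did not pass with 8 (limma adjusted p = 0.463). None of the other 3 passed in any comparison in either fit, and the part of these markers in the differences of the pair was not tested.

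Of 10 listed type-A regulators, 2 had a single-gene probe set, RR16 and ARR15. Their values are given beside the pair for the cytokinin response on the same arrays. RR16 read 0.926 and 0.783 with DMSO and 3.93 and 3.85 with BA in wild type, and 0.609 to 0.748 on the mutant arrays. It rose with BA in wild type by limma with 8 arrays (log2 2.19 ± 0.17, adjusted p = 0.0324), and its BA effect in the mutant was 0.09 ± 0.17 with 8 arrays and 0.06 ± 0.20 with 7. ARR15 read 0.635 and 0.613 with DMSO in wild type and 6.16 and 2.23 with BA, so its wild-type BA arrays were far apart. Its BA effect in wild type was 2.57 ± 0.44 (log2), which did not pass with 8 arrays (limma adjusted p = 0.164) and passed with 7 (limma adjusted p = 0.0349), and in the mutant it was 0.46 ± 0.44 with 8 arrays and 0.60 ± 0.51 with 7. Both probe sets are dim, so the levels without BA may lie at the floor and the size of these effects may be understated.

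The named genes most like each member were ranked by Pearson correlation of log2 values over the 8 arrays, 1 probe set per gene. The arrays fall into groups, the genes share the same arrays, and the correlations are a description. For AT3G45700 the first 5 were AT4G16146 (0.99), AT4G03610 (0.99), AT1G58170 (0.98), AT3G46880 (0.98) and AT3G59340 (0.98), and RR16 came next at rank 6 (0.98). These 5 were at 2.12 to 5.94 on the wild-type BA arrays and at 0.572 to 1.25 on the other 6. Without the wild-type BA arrays, an alternative chosen after the data were seen, their correlations fell to between 0.75 and 0.91 over 6 arrays, and 0 of the 5 remained among the first 5.

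For AT3G45710 the first 5 were AT2G43610 (1.00), AT1G14960 (0.98), AT1G66800 (0.98), AT1G64590 (0.97) and AT1G30700 (0.97), none of which was among the 5 for AT3G45700. AT2G43610 read 1.20 and 1.10 (DMSO) and 1.69 and 1.84 (BA) on wild-type arrays, and 0.897 and 0.504 (DMSO) and 0.623 and 0.722 (BA) on mutant arrays, so it ran in parallel with AT3G45710 over a narrower range. Its correlation was also 1.00 without the wild-type BA arrays, at rank 2. AT1G14960 and AT1G64590 fell lower in the mutant, to 0.133 and 0.0776 on DMSO replicate 2.

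AT3G45700 and AT3G45710 correlated at 0.89 with each other, which placed AT3G45710 at rank 71 for AT3G45700 and AT3G45700 at rank 130 for AT3G45710. Without the wild-type BA arrays the correlation of the pair was 0.98 over 6 arrays, at ranks 8 and 14. With AT3G45680 the correlations over 8 arrays were 0.92 for AT3G45700 and 0.94 for AT3G45710. EXPA7 correlated at 0.71 with AT3G45700, at rank 442, and at 0.86 with AT3G45710, at rank 177.

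**Figure D5:**
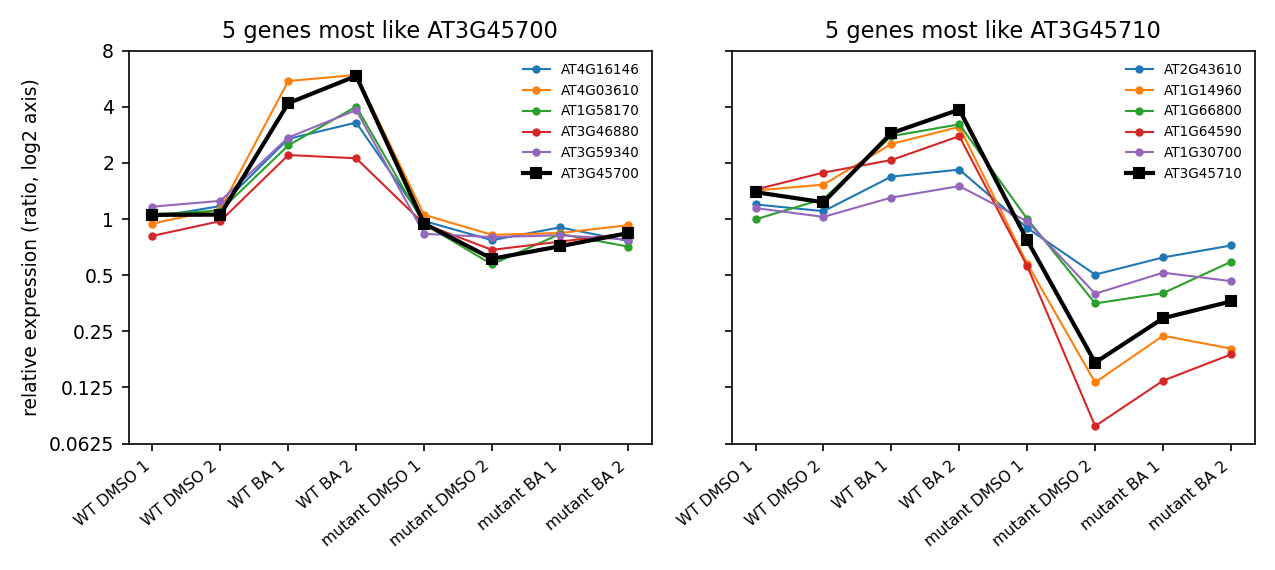
Relative expression (ratio, log2 axis) on the 8 arrays (x axis, named by group and replicate, with no order among replicates) of the 5 named genes most like AT3G45700 (left) and most like AT3G45710 (right), with the gene itself in black. The genes like AT3G45700 stand out on the wild-type BA arrays, at 2.12 to 5.94, whereas those like AT3G45710 also lie low on 3 of the 4 mutant arrays, at 0.0776 to 0.722.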

How the data were processed

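The deposited values are linear ratios per probe set. That they are ratios was read from the values, since 70.1% of probe sets have a median within 0.005 of 1. Targets were biotin-labelled by the array maker's standard protocol, per the labels, and how probes were summarised, background-corrected and scaled is not given in the sources used here. The members, lists and tests were chosen with earlier results of these data known. Limma 3.58.1 (R 4.3.3) was fitted to the log2 ratio with 1 mean per group over 8 arrays, on all 22746 probe sets other than 64 controls. Benjamini-Hochberg adjustment and a threshold of 0.05 were used. The fit was also run on simulated data with the same spread on every array, which does not cover an array that stands apart. The number of arrays limits the precision. Names came from a probe annotation giving 1 gene to 13513 probe sets, several to 503 and none to 8730 (unnamed here). RefSeq identifiers updated 13436 of the 13513 names, and of several probe sets for a gene the one with the highest mean was used. The NPF list holds 53 genes, 27 of which RefSeq also names NPF. Genes were named by rule: the pair, NPF genes with extreme or called values, neighbours, type-A regulators, markers and the 5 most like each member. Alternatives were offsets of 1 and 32, quantile normalization, centring, no dim probe sets, array weights, only the arrays compared, a replicate block and leaving out each array. A planned promoter motif search was not run, because no sequences were used here.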

Additional observations from a re-analysis of the deposited data

Results flagged for a closer look

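AT3G45680, the NPF neighbour of the pair, had BA effects of opposite sign in the 2 genotypes, although the fall in the mutant did not pass. Both wild-type BA arrays lay above both wild-type DMSO arrays, and both mutant BA arrays lay below both mutant DMSO arrays. The share of all probe sets with this arrangement was not computed. In the mutant the BA effect on AT3G45680 was -0.86 ± 0.39 (log2) with 8 arrays (limma adjusted p = 0.709) and -0.29 ± 0.26 with 7. Its size thus depended on mutant DMSO replicate 1, which read 1.06 against 0.479 on the group mate. The difference in its BA effect, mutant minus wild type, was -2.38 on the log2 scale with 8 arrays and did not pass (limma adjusted p = 0.339), and -1.81 with 7 arrays (limma adjusted p = 0.0910). For RR16 the difference was -2.13 without mutant DMSO replicate 1 and passed by the interaction term (limma adjusted p = 0.0350), and with 8 arrays it was -2.10 and did not pass (limma adjusted p = 0.167).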

How the results depend on the processing

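Outside the BA effect in the mutant, the values of the pair kept their sign under all 126 combinations of value and alternative. Many of these combinations could not change a value, such as leaving out an array of a group not compared. Dropping dim probe sets, array weights, the replicate block and only the arrays compared changed the SE and not the value. The 126 are therefore no measure of how stable the signs are. An offset shrinks log2 changes by construction. With an offset of 32 the BA effect in wild type was 0.16 (AT3G45700) and 0.0867 (AT3G45710), its difference between genotypes -0.16 and -0.093, and the genotype difference under BA -0.18 and -0.13. With an offset of 1 the values for AT3G45700 were 1.54, -1.53 and -1.75, and the genotype difference under BA for AT3G45710 was -1.71.

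With 1 array left out in turn, AT3G45700 and AT3G45710 ranged from 1.99 to 2.47 and from 1.14 to 1.56 for BA in wild type, from -0.29 to 0.34 and from -1.24 to 0.94 for BA in the mutant, from -2.52 to -1.89 and from -2.59 to -0.41 for the difference, from -0.78 to -0.16 and from -2.95 to -0.77 under DMSO, and from -2.92 to -2.43 and from -3.57 to -3.15 under BA. The ends for the mutant, the difference and DMSO come from leaving out mutant DMSO replicate 1 or 2.

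The number of NPF probe sets that passed by limma for BA in wild type was 0, but 1 with quantile normalization and 5 with array weights or only the arrays compared, and 0 to 5 with 1 array left out. For the genotypes under BA it was 1 (AT3G45700), but 0 with an offset of 32, 4 with quantile normalization, 7 with array weights, 5 with only the arrays compared, and 0 to 8 with 1 array left out. Leaving out 1 array gave 0 to 8 for BA in the mutant, 0 to 10 for the difference and 0 to 4 under DMSO, where the highest counts came without mutant DMSO replicate 2. The cause was not tested. All these counts include the pair, which was picked in the genotype comparison under BA, so they are a description and no test of the pair. The share of all probe sets that passed was computed only with 8 arrays and without mutant DMSO replicate 1. Under the other alternatives the NPF counts therefore cannot be set against that of all probe sets.

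Replicate numbers are shared between groups by title only. Deviations of same-numbered arrays correlated at -0.17 to 0.12. With the replicate number as a block, the NPF count for the genotypes under BA, the pair included, fell from 1 to 0. The count in the other 4 comparisons was 0 with and without the block.

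Of the 5 genes most like AT3G45700 and AT3G45710, 0 and 3 remained among the first 5 by Spearman correlation, and 3 and 1 without mutant DMSO replicate 1.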
